A study of Saccharomyces cerevisiae YPS1009 with 18 samples.

Results

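The histone genes of budding yeast were followed here as plasmid-borne extra copies. They were chosen by name: HTA1 (YDR225W) and HTA2 (YBL003C) for H2A, HTB1 (YDR224C) for H2B, HHT1 (YBR010W) and HHT2 (YNL031C) for H3, HHF1 (YBR009C) and HHF2 (YNL030W) for H4, HTZ1 (YOL012C) for the H2A variant H2A.Z, and HHO1 (YPL127C) for the linker histone H1. These are 9 of the 4817 genes in the table of barcode counts. HTB1 has 2 plasmid entries, written HTB1-1 and HTB1-2, so the 9 genes have 10 of the 4871 entries that name a gene. All 10 passed the filter on low counts and were tested among 4507 plasmids.

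Histones are the proteins around which DNA is wrapped. A pair each of H2A, H2B, H3 and H4 forms the core of a nucleosome, H2A.Z takes the place of H2A beside many promoters, and H1 sits on the linker DNA between cores. In yeast the core histone genes lie in divergent pairs, 1 gene of H2A with 1 of H2B, or 1 of H3 with 1 of H4, which share the promoter between them. The RefSeq annotation of the S288C reference places HTA1 next to HTB1 on chromosome IV, HTA2 next to HTB2 and HHT1 next to HHF1 on chromosome II, and HHT2 next to HHF2 on chromosome XIV, in each case transcribed away from each other. HTZ1 lies on chromosome XV and HHO1 on chromosome XVI, neither beside another histone gene. Cells hold free histones at low levels: transcription is limited to S phase by the HIR complex and others, and surplus protein is degraded.

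Each plasmid of the MoBY library is a low-copy centromeric plasmid with 1 yeast gene under its own promoter, a DNA barcode and a G418 resistance marker, so that barcode counts track how common each plasmid is in a pool. The pools were made in haploids of the oak isolate YPS1009: AGY1611, the euploid strain, and AGY1612, which carries an extra chromosome XII and a his3 deletion. Both carry a nourseothricin resistance marker and all cultures grew in rich medium with G418. Each strain has 3 libraries of the starting pool (T0), 3 from day 1 and 3 from day 28 of the culture. At day 1 and day 28 sampled cells were spread on plates and the lawns collected, so that only cells still able to divide were counted, which asks which extra copies become more or less common among cells that outlast the culture. T0 was taken from the pool without plating, so time and plating cannot be told apart in a comparison with T0. Each ploidy was represented by 1 strain, the 3 replicates came from 2 transformations of the library, and the strain numbers but not the ploidy are in the sample labels. None of the 9 histone genes lies on chromosome XII. A lower barcode count cannot be divided into fewer cells with the plasmid and fewer plasmids per cell.

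The T0 libraries held 3490833 to 6298507 counts and the day 1 and day 28 libraries 503569 to 1925650. At T0 the median coefficient of variation between replicates was 3.96% in AGY1611 and 5.72% in AGY1612 over all plasmids, and it was 49.1% to 55.4% at the later times. Abundance is given as counts per 1000000 TMM-scaled counts (CPM), changes are log2(fold change) ± standard error (SE) from edgeR's quasi-likelihood test, and a change was called at a false discovery rate (FDR) under 0.1.

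In the starting pools the histone plasmids were well covered. Their median abundance was 247 CPM in AGY1611 and 241 CPM in AGY1612, against 181 CPM over all plasmids in each strain, and the lowest single count was 277. The most abundant at T0 were HTA2 (349 ± 15.8 CPM in AGY1611, SD, n = 3), HTZ1 (318 ± 7.94) and HHT1 (304 ± 6.92). HTZ1 and HHT1 differed by less than the sum of their SDs, and the least abundant, HHO1 (80.3 ± 1.69) and HHT2 (74.1 ± 2.84), were close to each other too. By day 28 the histone median was 85.5 CPM in AGY1611 and 82.4 CPM in AGY1612, while the median of all plasmids was 178 and 168 CPM.

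**Figure D1:**
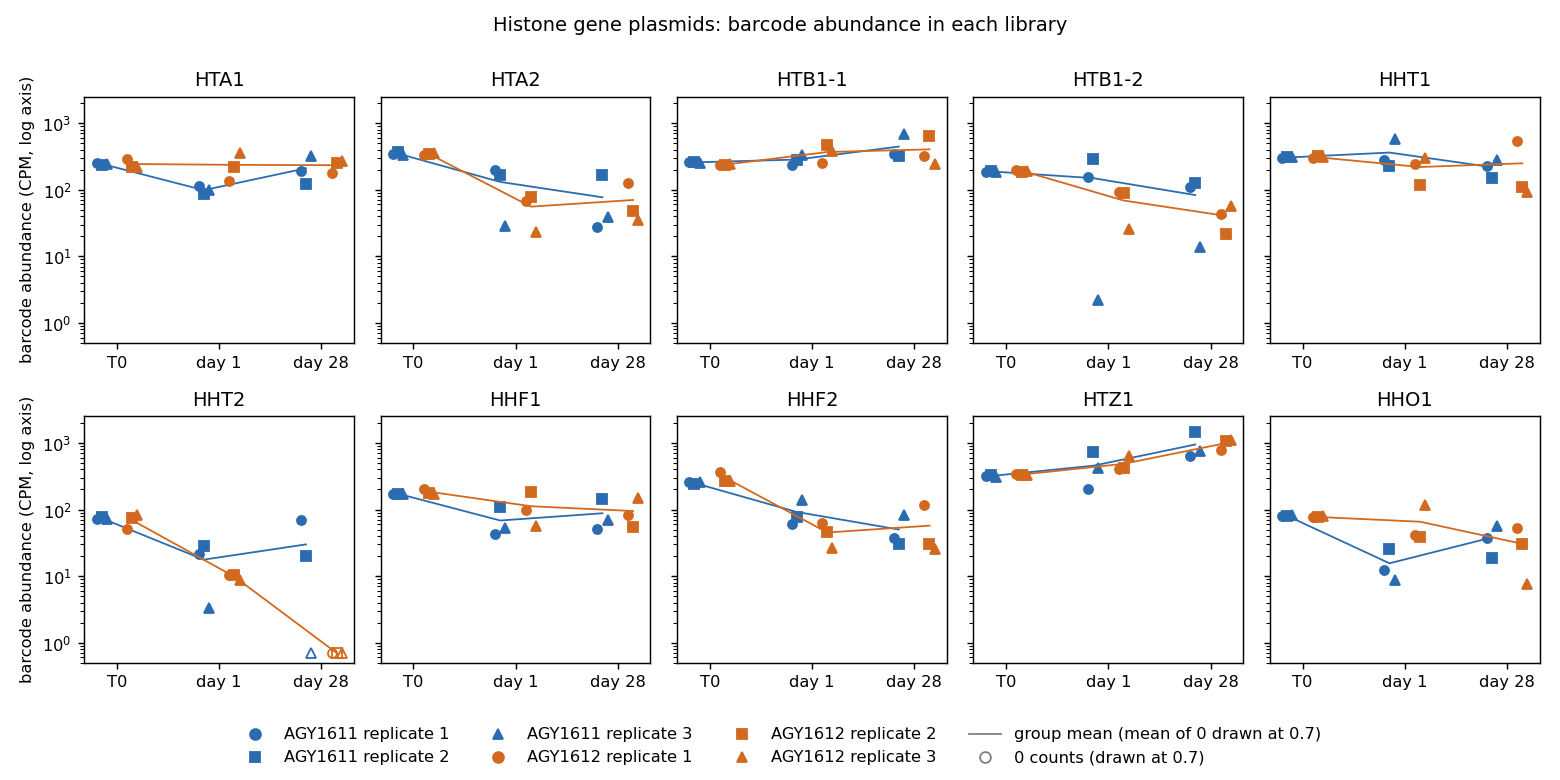
Barcode abundance (CPM, log axis) of the 10 histone plasmids at T0, day 1 and day 28, 1 point per library and a line through the group means, AGY1611 in blue and AGY1612 in orange; libraries with 0 counts are drawn as open points at the foot of the axis. HTZ1 is the plasmid whose day 28 libraries all lie above T0 by the widest margin in both strains, and HHT2 reaches 0 counts in every day 28 library of AGY1612.

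Between T0 and day 28 the histone plasmids were not called in 1 direction only. The HTZ1 plasmid rose in both strains, the HTA2 and HHF2 plasmids fell in both strains, the HHT2 plasmid fell in AGY1612, and the plasmids of HTA1, HTB1, HHT1, HHF1 and HHO1 were not called in either strain. In AGY1612 that is 4 of 10 histone plasmids against 20% of all plasmids called, with 1 higher (7.03% of all) and 3 lower (13% of all). In AGY1611 it is 3 of 10 against 14.6%, with 1 higher (5.13% of all) and 2 lower (9.5% of all). The changes of 8 of 10 histone plasmids were negative in each strain, with TMM, RLE and total-count scaling alike, where 43.7% of all plasmids in AGY1612 and 43.9% in AGY1611 were negative under TMM. The median change was -1.16 in AGY1612 and -1.03 in AGY1611, against 0.19 and 0.16 over all plasmids. That median over all plasmids was -0.11 and -0.14 with total counts. The libraries of T0 and day 28 did not overlap for 2 higher and 6 lower histone plasmids in AGY1612 (21.1% and 27.3% of all plasmids) and for 2 higher and 7 lower in AGY1611 (20.8% and 25.4%).

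**Figure D2:**
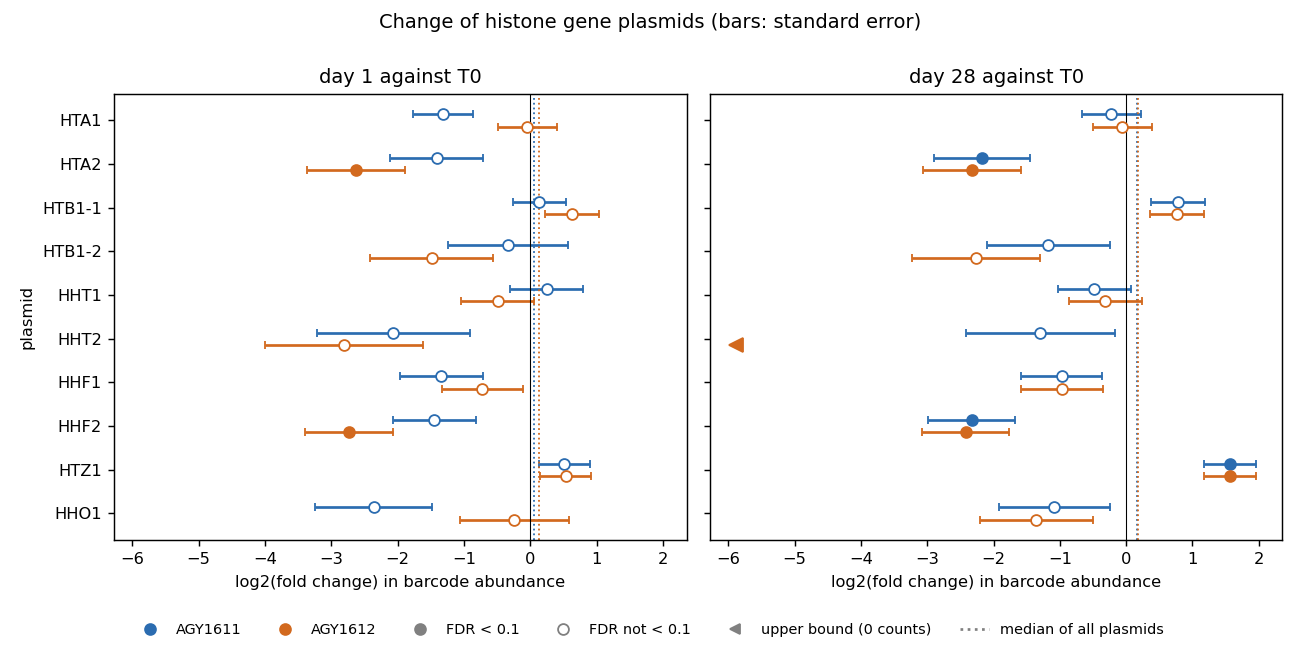
Change of each histone plasmid (log2 fold change with standard error bars) from T0 to day 1 (left) and to day 28 (right), AGY1611 in blue and AGY1612 in orange; filled points have FDR under 0.1, the triangle marks the upper bound of -5.88 for HHT2, and dotted lines mark the medians of all plasmids. At day 28 the filled points are HTA2, HHF2 and HTZ1 in both strains and HHT2 in AGY1612.

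HTZ1, which encodes H2A.Z, had 321, 324 and 309 CPM in the T0 libraries of AGY1611 and 637, 1443 and 760 CPM at day 28. In AGY1612 it had 346, 329 and 329 CPM at T0 and 774, 1086 and 1121 CPM at day 28. Every day 28 library was higher than every T0 library of its strain. The change was 1.57 ± 0.39 in AGY1611 (FDR = 0.015) and 1.57 ± 0.39 in AGY1612 (FDR = 0.0122), above that of 97.2% and 96.4% of all plasmids tested. The call held under each of the 9 other fits and after leaving out each of the 18 libraries in turn, in both strains, and under total counts the change was 1.26 in AGY1611 and 1.28 in AGY1612.

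H2A is encoded by HTA1 and HTA2, and of the plasmids of these genes only that of HTA2 was called. HTA2 had 343, 367 and 337 CPM at T0 in AGY1611 and 27.1, 164 and 39.4 CPM at day 28. In AGY1612 it went from 336, 347 and 355 CPM to 127, 47.2 and 35.7 CPM. All day 28 libraries were below all T0 libraries, with 1 library in each strain well above the others. The change of HTA2 was -2.17 ± 0.73 (FDR = 0.0616) in AGY1611 and -2.32 ± 0.73 (FDR = 0.039) in AGY1612.

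These HTA2 calls were lost when single libraries were left out. In AGY1612 the call was lost without day 28 replicate 2 (-1.95, FDR = 0.15) or replicate 3 (-1.86, FDR = 0.138), and without replicate 1 the change was -2.94 (FDR = 0.0334). In AGY1611 it was lost without day 28 replicate 1 (-1.68, FDR = 0.162) or replicate 3 (-1.77, FDR = 0.176), without any 1 of the T0 libraries (FDR 0.137 to 0.15) and in a fit of that strain alone (-2.09, FDR = 0.133), and without day 28 replicate 2 it was -3.30 (FDR = 0.0221). The direction was the same in all of these fits.

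HTA1 had 210 ± 100.4 CPM at day 28 in AGY1611 and 233 ± 49.7 CPM in AGY1612, against 245 ± 5.43 and 244 ± 37.8 CPM at T0 (SD, n = 3). Its change was -0.23 ± 0.45 (FDR = 0.801) and -0.06 ± 0.45 (FDR = 0.947), and the day 28 and T0 libraries overlapped in both strains.

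HTB1, 1 of the pair of H2B genes, showed how far entries of the same gene can part. HTB1-1 had 259, 264 and 249 CPM at T0 and 341, 318 and 675 CPM at day 28 in AGY1611, and 233, 238 and 243 CPM against 320, 646 and 245 CPM in AGY1612. HTB1-2 went from 187, 194 and 185 CPM to 108, 127 and 13.6 CPM in AGY1611 and from 199, 186 and 194 CPM to 43.1, 21.8 and 56.2 CPM in AGY1612. Every day 28 library was above T0 for HTB1-1 and below T0 for HTB1-2. The changes were 0.79 ± 0.41 (FDR = 0.238) and -1.17 ± 0.92 (FDR = 0.454) in AGY1611, and 0.77 ± 0.41 (FDR = 0.231) and -2.26 ± 0.96 (FDR = 0.126) in AGY1612, so none was called. In AGY1612, HTB1-1 passed the threshold without day 28 replicate 3 (1.14, FDR = 0.0659), and HTB1-2 passed it in 5 fits, among them DESeq2 (FDR = 0.0453) and the fit of AGY1612 alone (FDR = 0.0396).

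Of the H3 plasmids, HHT2 was no longer counted at day 28 in AGY1612. In these libraries 634, 804 and 632 of all 4871 entries had 0 counts, against 135, 144 and 134 in the T0 libraries of AGY1612. HHT2 had 277, 298 and 479 counts in the T0 libraries of AGY1612, 19, 19 and 10 counts at day 1, and 0 counts in all 3 libraries at day 28. Against a floor of 3 counts over the group (1.17 CPM), it was at least 58.8-fold lower at day 28 than at T0 (FDR = 0.00437). In AGY1611 it had 503, 543 and 522 counts at T0 and 77, 23 and 0 at day 28, which as CPM was 69.6, 20.2 and 0. Replicate 1 of AGY1611 at day 28 thus lay near its T0 value of 74.1 ± 2.84 CPM, and the change of -1.30 ± 1.12 was not called (FDR = 0.506). HHT1, the other H3 gene, had 218 ± 62.8 CPM at day 28 in AGY1611 and 249 ± 257 CPM in AGY1612, from 304 ± 6.92 and 307 ± 7.73 CPM at T0. In AGY1612 its day 28 libraries had 546, 108 and 93 CPM, and without the first of these the change was -1.49 (FDR = 0.0538) rather than -0.31 ± 0.55 (FDR = 0.746).

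Of the H4 genes, HHF2 fell and HHF1 was not called. HHF2 had 257, 238 and 255 CPM at T0 and 37, 29.9 and 83.3 CPM at day 28 in AGY1611, and 365, 272 and 266 CPM against 115, 30.6 and 26 CPM in AGY1612. Every day 28 library was below every T0 library. The change was -2.33 ± 0.65 (FDR = 0.0282) in AGY1611 and -2.42 ± 0.66 (FDR = 0.0194) in AGY1612. The AGY1612 call held under all 9 other fits and all 18 left-out libraries, with a change of -3.29 (FDR = 0.00901) without day 28 replicate 1. The AGY1611 call was lost with group weights in limma (-2.49, FDR = 0.112) and without day 28 replicate 2 (-1.97, FDR = 0.109).

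HHF1 had 87.8 ± 48.9 CPM at day 28 in AGY1611 and 94.8 ± 48.3 CPM in AGY1612, from 173 ± 0.59 and 185 ± 16.1 CPM at T0. Its change was -0.97 ± 0.62 in both strains (FDR = 0.346 and 0.325). HHO1, the H1 gene, had 38 ± 19.5 and 30.5 ± 22.9 CPM at day 28, from 80.3 ± 1.69 and 77.3 ± 1.47 CPM at T0. All 6 day 28 libraries of HHF1 and of HHO1 lay below the T0 libraries of their strain, but the HHO1 changes of -1.08 ± 0.84 (FDR = 0.446) and -1.36 ± 0.85 (FDR = 0.314) were not called. In AGY1612, HHO1 was called only with group weights in limma among the 9 other fits (FDR = 0.0761).

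Plasmids that encode the same kind of histone were then compared within each library, where both members share depth and scaling. The ratio moved towards the same member in both strains for the entries of HTB1 and for the H2A, H3 and H4 genes. The HTA1 to HTA2 ratio was between 0.627 and 0.856 in the 6 T0 libraries. At day 28 it was 6.93, 0.743 and 8.12 in AGY1611 and 1.39, 5.39 and 7.55 in AGY1612, so 5 of 6 libraries held more HTA1 than HTA2. The HHF1 to HHF2 ratio was between 0.558 and 0.728 at T0, and 1.37, 4.79 and 0.836 in AGY1611 and 0.714, 1.77 and 5.71 in AGY1612 at day 28. The entries of HTB1 parted most clearly among the pairs without 0 counts, from 1.17 to 1.39 at T0 to 3.14, 2.50 and 49.6 in AGY1611 and 7.43, 29.6 and 4.37 in AGY1612.

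As a mean over the strains, the log2 ratio changed by 2.37 for HTA1 over HTA2, 1.49 for HHF1 over HHF2 and 2.68 for HTB1-1 over HTB1-2 (exact permutation test within strains, two-sided, p = 0.005 each, the smallest this design can give, 0.00667 after Benjamini-Hochberg adjustment over 4 pairs). The T0 and day 28 ratios did not overlap in either strain for these pairs, which is all that a p-value at this floor states. The share of other plasmid pairs that do so was not counted. Of single plasmids, 21.1% lay all higher and 27.3% all lower at day 28 than at T0 in AGY1612, and 20.8% and 25.4% in AGY1611. For HHT1 over HHT2 the mean change was 4.15 (exact permutation p = 0.02, adjusted 0.02), a value set by a pseudocount of 0.5 in the 4 day 28 libraries where HHT2 had 0 counts. In AGY1611 alone that change was 2.33, with overlapping groups (exact permutation p = 0.4). These pairs were set side by side with the changes of their members already known, and the directions follow from values given above. Their p-values are thus no independent support.

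**Figure D3:**
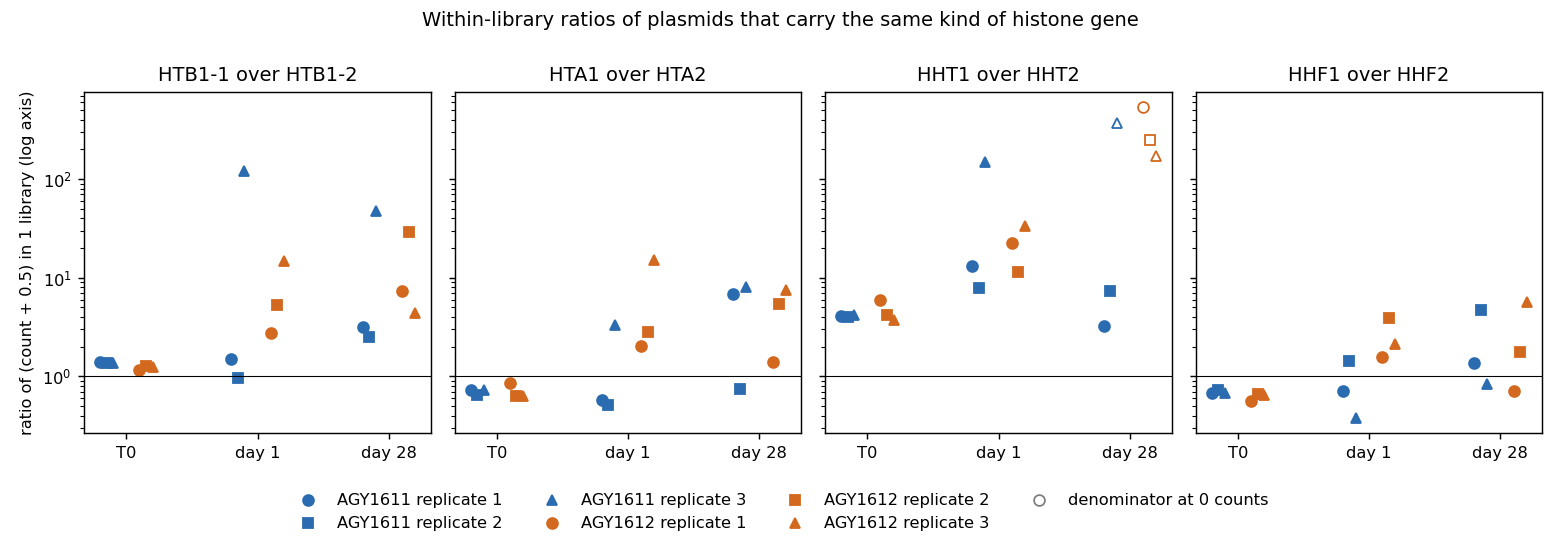
Ratio of counts (log axis, pseudocount 0.5) within each library for HTB1-1 over HTB1-2, HTA1 over HTA2, HHT1 over HHT2 and HHF1 over HHF2 at T0, day 1 and day 28, 1 point per library; open points have a denominator of 0 counts. The T0 points lie close together, and those of day 28 spread mostly upward, for HTB1-1 over HTB1-2 from 2.50 to 49.6.

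Gaps between entries of 1 gene were common in the library. Of all genes with more than 1 entry, 44 had at least 2 tested, and the median absolute difference between the changes of a gene's entries from T0 to day 28 was 1.58 in AGY1612 and 1.66 in AGY1611. The HTB1 entries differed by 3.03 and 1.96, and 6 of the 44 genes in AGY1612 and 17 in AGY1611 had a larger gap. The within-library changes between paralogues were 2.29 and 2.45 for the H2A genes and 1.34 and 1.63 for the H4 genes in AGY1611 and AGY1612. These are means of log2 ratios per library with a pseudocount of 0.5, a measure unlike the medians, which are differences of edgeR changes. By the ratios per library the HTB1 entries parted by 2.39 in AGY1611 and 2.98 in AGY1612. Whether the HTB1 entries carry the same insert was not tested.

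The genes of each divergent pair were on plasmids of their own, and their changes are set side by side here with no test between partners. HTA1 and HTB1-1 were not called in either strain. HHT1 and HHF1 were not called either, with changes of -0.31 and -0.97 in AGY1612. HHT2 and HHF2 were both called lower in AGY1612, and HHF2 alone in AGY1611. HTA2 was called in both strains while HTB2, its neighbour and the second H2B gene, had -1.41 (FDR = 0.243) in AGY1612 and -0.45 (FDR = 0.758) in AGY1611. The histone genes are short, 312 to 777 bases with a median of 399, against a median of 1152 for the 4501 tested plasmids with an annotated gene length.

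The day 1 libraries were also compared with T0, where time and plating cannot be told apart. This comparison shares the T0 libraries with that of day 28, so the changes are not independent. In AGY1612 the HTA2 and HHF2 plasmids were already lower at day 1, 2 of 10 histone plasmids against 2.88% of all plasmids called (1.78% called lower). HTA2 had 66.8, 77.2 and 23.2 CPM (-2.63 ± 0.74, FDR = 0.0838) and HHF2 had 62.9, 45.9 and 26.6 CPM (-2.73 ± 0.66, FDR = 0.0603), all below T0, as were 5 histone plasmids in all (25.9% of all plasmids), with 2 all above (18.3%). At FDR under 0.05 none was called (0 of 10, against 0.0888% of all plasmids). Both calls were lost when single libraries were left out: without any 1 of the 6 T0 libraries HTA2 had an FDR of 0.145 to 0.27 and HHF2 of 0.113 to 0.244, at changes between -2.57 and -2.81. HTA2 was also lost without any 1 of the AGY1612 day 1 libraries (FDR 0.106 to 0.18), where its change was -2.01 without replicate 3, and HHF2 without day 1 replicate 3 (-2.21, FDR = 0.11). HHT2 was at -2.81 ± 1.19 (FDR = 0.186) in AGY1612 at day 1, and DESeq2 called it (FDR = 0.0633).

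In AGY1611 no histone plasmid was called at day 1 by edgeR, against 0.288% of all plasmids, while 4 of 10 had an unadjusted p under 0.05, against 16.6% of all plasmids. The libraries of day 1 and T0 did not overlap for 6 lower and 0 higher histone plasmids (26.8% and 13.3% of all plasmids). The lowest FDR was that of HTA1, with 112, 85.6 and 97.3 CPM, all below its T0 values of 249, 239 and 247 CPM (-1.31 ± 0.46, FDR = 0.192). HHO1 had 13, 24 and 8 counts at day 1, from 555, 555 and 589 at T0 (-2.36 ± 0.88, FDR = 0.211). DESeq2, which called 7.39% of all plasmids, called HTA1 (FDR = 0.0376), HHF2 (FDR = 0.0913) and HHO1 (FDR = 0.0401), and group weights in limma called HHO1 (FDR = 0.0691). HTZ1 was at 0.51 ± 0.38 in AGY1611 and 0.54 ± 0.38 in AGY1612 at day 1, uncalled, with 1 of 3 AGY1611 libraries below T0.

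From day 1 to day 28 no histone plasmid was called by edgeR in either strain, where 1.53% of all plasmids in AGY1612 and 0.976% in AGY1611 were, and 2 of 10 in each strain had an unadjusted p under 0.05, against 11.4% and 9.52% of all. The change of HTZ1 was 1.03 ± 0.39 (FDR = 0.268) in AGY1612 and 1.06 ± 0.39 (FDR = 0.318) in AGY1611, and it was called in AGY1611 without day 1 replicate 2 (1.60, FDR = 0.0995). HHT2 in AGY1612 was at least 8.33-fold lower at day 28 than at day 1 (FDR = 0.124). DESeq2 called it (FDR = 0.0232), as did the fits without AGY1611 day 1 replicate 3 (FDR = 0.0918) or without 1 of the AGY1611 day 28 replicates (FDR 0.0429 to 0.0964).

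No histone plasmid changed differently in the aneuploid and the euploid strain by edgeR's test of the difference itself. At day 28 this test called 0.266% of all plasmids and 0 of 10 histone plasmids, of which 1, HHT2, had an unadjusted p under 0.05 (FDR = 0.245), against 6.94% of all plasmids. The HHT2 difference has no size that can be given, as AGY1612 had 0 counts at day 28. It was called by DESeq2 (FDR = 0.0331) and without AGY1611 day 28 replicate 3, the library of that strain with 0 counts (FDR = 0.0715), but not in the other 24 of 26 fits. For the others the difference (AGY1612 minus AGY1611) lay between -1.09 (HTB1-2) and 0.17 (HHT1), with FDR of 0.978 to 1. The 95% interval of the HTZ1 difference ran from -1.11 to 1.11, and that of HTA2 from -2.20 to 1.90, so differences of these sizes were not detectable with 3 libraries a group. At day 1 edgeR called 0% of all plasmids and 0 histone plasmids, as did DESeq2 for the latter, with the highest difference in HHO1 (2.12 ± 1.19, FDR = 0.998), and 0 of 10 had an unadjusted p under 0.05. At T0 the strains differed by -0.11 to 0.27, with 0% of all plasmids and 0 histone plasmids called. edgeR's unadjusted p was under 0.05 for 0% of all plasmids and 0 histone plasmids. The fit shares 1 spread per plasmid over all 18 libraries, the variable later ones included. The SE at T0 was 0.38 for HTZ1 and 1.10 for HHT2, so differences of the sizes seen could not be called. The T0 libraries of the strains did not overlap for HHF2 and HTZ1 (AGY1612 higher) or HTB1-1 and HHO1 (AGY1612 lower). The share over all plasmids was not counted, so no difference particular to the histone plasmids can be read from this.

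By the pattern of log2 CPM over the 18 libraries, the plasmids most like HTZ1 were those of MRPL15 (r = 0.898) and ATP14 (r = 0.854). Those most like HTA2 were BAS1 (0.927) and YDJ1 (0.924), those most like HHF2 were MRPL44 (0.931) and YME1 (0.925), and those most like HHT2 were GTS1 (0.942) and PMT5 (0.921). Among the histone plasmids the highest correlations were between HTA2 and HTB1-2 (0.756) and between HTA2 and HHF2 (0.753), and the lowest was between HHF2 and HTZ1 (-0.682). These are descriptions over libraries that share culture, depth and scaling.

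The wider machinery of histone supply was read from 50 genes in 6 lists, of which 42 were in the table with 43 tested plasmids. At day 28, 1 rose and 8 fell in AGY1612, and 1 rose and 2 fell in AGY1611. Over all plasmids 7.03% rose and 13% fell in AGY1612, and 5.13% rose and 9.5% fell in AGY1611. Their median change was -0.12 in AGY1612 and 0.07 in AGY1611, against 0.19 and 0.16 over all plasmids. None was called by edgeR at day 1 or in the difference between strains at day 28, where 9 (AGY1612) and 7 (AGY1611) at day 1 and 1 in the difference had an unadjusted p under 0.05, against 21%, 16.6% and 6.94% of all plasmids. DESeq2 called 5, 3 and 0 of the 43, against 11.5%, 7.39% and 1.18% of all.

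HIR2, a subunit of the HIR complex that represses histone transcription, was the 1 of 6 transcriptional regulators that was called, and it fell in both strains. It had 264 to 303 CPM in the 6 T0 libraries, and at day 28 its counts were 13, 4 and 7 in AGY1611 and 7, 13 and 0 in AGY1612. The change was -5.05 ± 0.93 (FDR = 0.00175) in AGY1611 and -5.09 ± 0.94 (FDR = 0.00158) in AGY1612, where it was -4.34 without day 28 replicate 3. HAT1, the catalytic subunit of the acetyltransferase that marks new H4, had 39, 0 and 0 counts at day 28 in AGY1611 and 11, 15 and 11 in AGY1612, with 223 to 237 CPM in the 6 T0 libraries. Its change was -4.26 ± 1.09 (FDR = 0.0172) in AGY1611 and -3.87 ± 1.08 (FDR = 0.0223) in AGY1612. The AGY1611 value depended on single day 28 libraries: it was -3.53 (FDR = 0.0501) without replicate 2 and -3.59 (FDR = 0.0493) without replicate 3, and without replicate 1 both remaining libraries had 0 counts.

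RTT109, the acetyltransferase of new H3, lies on chromosome XII and fell in AGY1612 (-1.88 ± 0.59, FDR = 0.039), where the call was lost without T0 replicate 1 (-1.77, FDR = 0.112) or without day 28 replicate 2 (-1.69, FDR = 0.128) or 3 (-1.67, FDR = 0.112). The other 3 genes on the list for histone acetylation linked to deposition, HAT2, HST3 and HST4, were not called in either strain. Of 13 chaperone and importer plasmids, 2 fell in AGY1612, against 13% of all plasmids, and 0 were called in AGY1611, against 14.6%. RLF2, the large subunit of the chromatin assembly factor CAF-1, fell (-1.80 ± 0.49, FDR = 0.0197), with a change of -1.21 without day 28 replicate 2 (FDR = 0.0888). NHP6A, an HMG-box protein that works with the chaperone FACT, fell (-1.58 ± 0.53, FDR = 0.0518), a call that was lost with group weights in limma (FDR = 0.175), without any 1 of the AGY1612 T0 libraries (FDR 0.105 to 0.16) and without day 28 replicate 1 (-1.23, FDR = 0.163).

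The SWR1 complex exchanges H2A for H2A.Z in nucleosomes. Of its 12 tested plasmids, 3 were lower and 1 higher in AGY1612 and 0 were called in AGY1611, where 13% of all plasmids were lower and 7.03% higher in AGY1612, and 14.6% were called in AGY1611. SWC4 (-2.18 ± 0.84, FDR = 0.0858), SWC5 (-2.02 ± 0.79, FDR = 0.0923) and 1 of the entries of VPS72, whose protein binds H2A.Z (-1.52 ± 0.60, FDR = 0.0936), lay close to the threshold. Leaving out 1 library, the T0 libraries included, lost the SWC4 call in 9 of 18 fits (FDR up to 0.222), the SWC5 call in 10 (FDR up to 0.281), which group weights in limma lost too (FDR = 0.231), and the VPS72 call in 14 (FDR up to 0.227). SWC4 was at -2.78 without day 28 replicate 3 and SWC5 at -2.72 without replicate 2 and -1.44 without replicate 3. The other VPS72 entry was at -0.29. BDF1, a bromodomain protein of the complex encoded on chromosome XII, rose by 1.26 ± 0.44 (FDR = 0.0608), and was not called with total counts (0.93, FDR = 0.162), without any 1 of the AGY1612 T0 libraries (FDR 0.148 to 0.175) or without day 28 replicate 2 (0.83, FDR = 0.235).

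Of the 4 tested plasmids for histone degradation, UBC4, a ubiquitin-conjugating enzyme that acts on surplus histones, rose by 1.66 ± 0.42 in AGY1611 (FDR = 0.0154) and had a change of 0.78 in AGY1612 (FDR = 0.223). HTB2 and the entries of CSE4, the centromeric H3 variant, were not called in either strain.

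**Figure D4:**
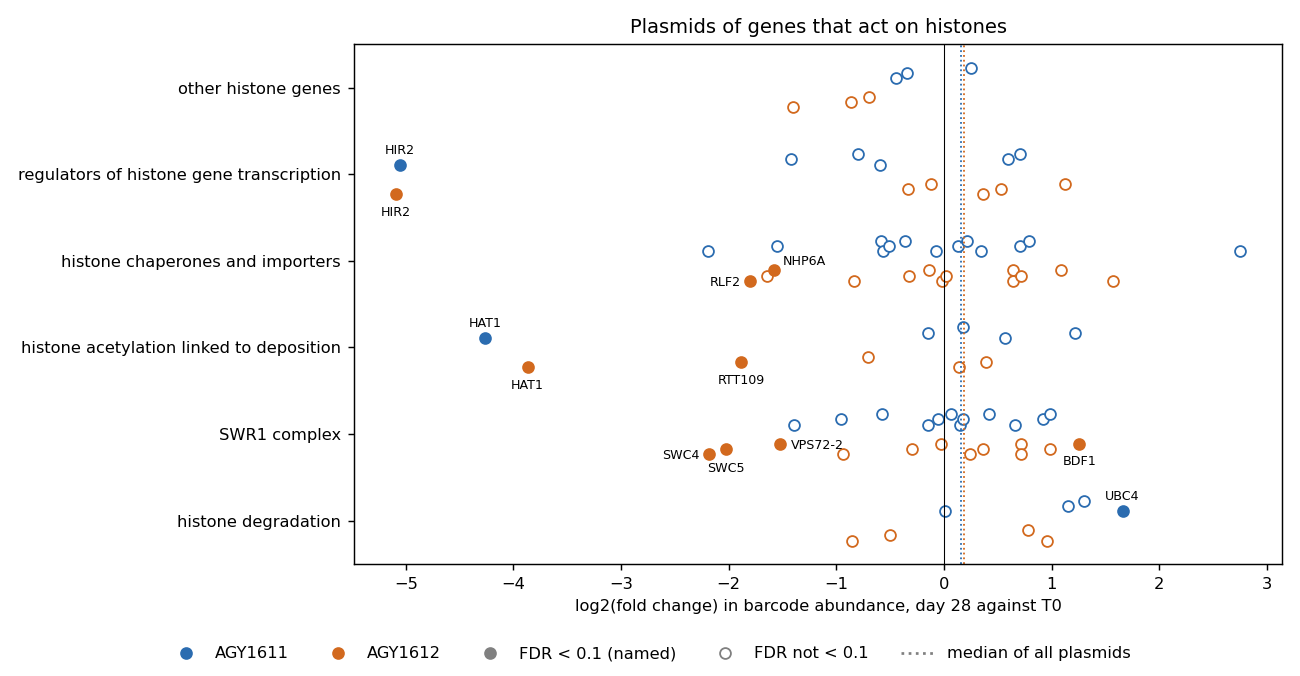
Change from T0 to day 28 (log2 fold change) of plasmids for 6 lists of genes that act on histones or encode the remaining ones, AGY1611 in blue and AGY1612 in orange; filled, named points have FDR under 0.1 and dotted lines mark the medians of all plasmids. HIR2 (-5.05 and -5.09) and HAT1 (-4.26 and -3.87) stand apart on the left in both strains, and most other points lie between -2 and 2.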

How the data were processed

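The deposited table holds raw barcode counts per plasmid, which the authors obtained by sequencing barcode amplicons and matching them to the library; the matching program is not given in the sources used here. The empty vector (0% to 0.0296% of counts) was left out of library sizes and tests. Of 4871 entries naming a gene, 4865 matched the RefSeq table, 6 did not, and 86 had no count. edgeR 4.0.16 (R 4.3.3) was run with filterByExpr, TMM factors and its quasi-likelihood F-test, with 1 coefficient per group, all 18 libraries, two-sided contrasts, and Benjamini-Hochberg adjustment over 4507 plasmids. CPM is per 1000000 TMM-scaled counts, and log2 CPM used a prior count of 2. DESeq2 1.42.0, limma 3.58.1 (voom with 1 weight per group, added after the data were seen), RLE and total-count scaling, other filters, replicate blocks and leaving out each library were alternatives. The fit was also run on counts simulated with 1 spread per plasmid for all libraries. The smaller spread of the real T0 libraries was not simulated.

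All 9 histone genes were named, together with linked genes called at day 28 in a strain or in the strain difference, and the 2 plasmids most correlated with each called histone plasmid. Members, lists and pairs were chosen with earlier results of these data known. As the replicates came from 2 transformations, p-values measure the spread between these libraries, which may be partly technical. No 2 replicates differed by as little as counting noise (lowest chi-square per degree of freedom 1.84). Replicate numbers paired the day 1 and day 28 libraries of a strain: deviations from the group means correlated at 0.332 to 0.504 in AGY1611 and 0.144 to 0.311 in AGY1612 in every pair, and each culture was sampled at both times. They did not clearly pair T0 or the strains. From T0 to day 1 the correlations were -0.0129 to 0.0937, though each AGY1611 T0 library matched its own number best.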

Additional observations from a re-analysis of the deposited data

How the results depend on the processing

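Of the 81 values of histone plasmids that were not called (9 contrasts), 36 changed sign in at least 1 fit, none while called, and 11 gained a call in at least 1 fit. No called histone value changed sign. The count of called histone plasmids from T0 to day 28 was 4 in AGY1612 (4 to 6 under other settings, 3 to 5 without 1 library) and 3 in AGY1611 (2 to 3 in both cases). From T0 to day 1 it was 2 in AGY1612 (3 with DESeq2, 0 at FDR under 0.05, 0 to 2 without 1 library), and 0 in AGY1611 (3 with DESeq2, 1 with group weights in limma). From day 1 to day 28 it was 0 in AGY1612 (1 with DESeq2, 0 to 1 without 1 library) and 0 in AGY1611 (0 to 1 without 1 library). For the strain difference at day 28 it was 0 (1 with DESeq2, 0 to 1 without 1 library), and for the strain differences at day 1 and T0 it was 0 throughout. The cause of these changes was not tested. A fit with 1 replicate block shared by both strains called 4 histone plasmids (AGY1612) and 3 (AGY1611) from T0 to day 28. It called 0 in both strains from day 1 to day 28. A clear pairing held only between day 1 and day 28 of a strain, so this block did not match it for T0 or between strains. A block within each strain also called HTB1-2 in AGY1612 from T0 to day 28 (-2.26, FDR = 0.0832). From day 1 to day 28, where this block follows the pairing, it called no histone plasmid in either strain. The later libraries, with 503569 to 1925650 counts and a replicate variation near 50%, limit what could be called. Of 60 group means, 17 moved by more than 1 SD with total counts.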
